A study of Mus musculus with 16 samples.

Results

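Axon guidance ligands and receptors are the secreted and membrane proteins by which a growing axon finds its way. They were taken here as the protein-coding genes of the mouse GENCODE M1 annotation whose symbols belong to the Sema, Plxn, Epha, Ephb, Efna, Efnb, Slit, Robo, Ntn and Unc5 series, together with Dcc, Nrp1 and Nrp2. These names gave 71 of 22232 protein-coding genes, namely 20 semaphorins, 9 plexins, 2 neuropilins, 14 Eph receptors, 8 ephrins, 3 Slits, 4 Robos, 6 netrins and 5 netrin receptors. Of the 71 genes, 37 encode ligands and 34 encode receptors. For each gene it was asked whether a peak centre lay within 2500 bp of an annotated start site (its promoter window) in each of 10 deposited peak lists.

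The lists come from chromatin immunoprecipitation and sequencing (ChIP-seq) in mouse 46C cells, an embryonic stem cell (ES) line with a green fluorescent reporter in the Sox1 gene. ES were grown on inactivated mouse fibroblasts with leukemia inhibitory factor and 2 kinase inhibitors, and neural precursor cells (NPC) were taken at day 6 of differentiation in suspension. H2AK119ub1 and H3K27me3 were each profiled in wild type ES, shPCGF5 ES, wild type NPC and shPCGF5 NPC, which made 8 lists. The shPCGF5 genotype denotes cells named PCGF5-depleted in the labels, and the methods describe lentiviral short hairpin RNA, puromycin selection and the picking of clonal clusters. The other 2 lists are Flag-PCGF5 in ES and in NPC, from Sox1 reporter cells whose own Pcgf5 gene carried 3 Flag repeats, so no list has Flag-PCGF5 in shPCGF5 cells. The input libraries (6 of 16 libraries) were not used here.

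Ligands of this system act at the surface of the growth cone, where semaphorins bind plexins with or without neuropilins. Ephrins bind Eph receptors, Slits bind Robos and netrin-1 binds Dcc and Unc5 proteins. H3K27me3 is laid down by Polycomb repressive complex 2 and H2AK119ub1 by Polycomb repressive complex 1, and both mark many developmental genes that are silent in ES. PCGF5 is one of several alternative PCGF subunits of Polycomb repressive complex 1.

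Each group was 1 library, so no difference between groups could be tested and no p-value is given. The intervals are 95% Wilson intervals over genes, they cover counting error only, and genes are not replicates of a condition. The peak lists hold no read totals. They held between 3845 and 8672 H2AK119ub1 peaks, between 10234 and 14759 H3K27me3 peaks, and 653 and 12013 Flag-PCGF5 peaks in ES and NPC. A missing peak means that the region lay below the peak caller's threshold in that library, not that the mark was absent. The cells were profiled in bulk, so fewer cells with a mark and less of the mark per cell cannot be told apart. No expression was measured in these libraries, and cell identity could be looked at only through promoter marks. Most of these did not divide by stage. Sox1, also looked up as a neural marker, was not found among the annotated protein-coding genes. Of the ES markers, Pou5f1 and Nanog had no promoter peak in any list, Zfp42 had H3K27me3 in wild type NPC alone (253 bp), Klf4 had it in both NPC lists (2156 and 925 bp) and neither ES list, and Esrrb had a peak in 7 of 8 histone lists. Of the neural markers, Pax6 had peaks in all 8 histone lists, and Nes had H3K27me3 in all but wild type ES and H2AK119ub1 in all but wild type NPC.

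The sequences under the peaks that the results turn on are shown first, as stretches of 200 bp on mm9 (NCBIM37), written 5′ to 3′ on the strand of the gene, with each CG dinucleotide in capitals. None of the stretches overlaps an annotated exon. The first 2 lie in H3K27me3 peaks of high fold in wild type NPC, the third at the gene with the most H3K27me3 in shPCGF5 NPC, the fourth in a peak of wild type NPC that had no counterpart in shPCGF5 NPC, the next 2 in H3K27me3 peaks that were found in shPCGF5 NPC and not in wild type NPC, the seventh in the Flag-PCGF5 peak of highest fold, and the last 2 just upstream of genes without a peak in any list.
Plxna4 (intron, chr6:32537054-32537253, minus strand, 15 CG): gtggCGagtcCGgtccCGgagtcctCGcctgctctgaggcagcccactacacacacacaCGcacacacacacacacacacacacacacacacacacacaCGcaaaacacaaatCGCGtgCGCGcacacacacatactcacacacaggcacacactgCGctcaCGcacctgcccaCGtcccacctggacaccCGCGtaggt
Robo3 (upstream, chr9:37241207-37241406, minus strand, 9 CG): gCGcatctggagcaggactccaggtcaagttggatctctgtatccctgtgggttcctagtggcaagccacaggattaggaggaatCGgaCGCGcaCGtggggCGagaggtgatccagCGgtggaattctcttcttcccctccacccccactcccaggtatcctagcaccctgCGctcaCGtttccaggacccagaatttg
Ntn1 (intron, chr11:68199688-68199887, minus strand, 18 CG): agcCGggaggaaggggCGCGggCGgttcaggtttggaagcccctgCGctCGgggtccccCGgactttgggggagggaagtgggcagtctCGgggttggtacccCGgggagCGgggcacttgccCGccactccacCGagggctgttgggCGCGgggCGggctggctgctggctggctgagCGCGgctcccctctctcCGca
Unc5b (intron, chr10:60293635-60293834, minus strand, 20 CG): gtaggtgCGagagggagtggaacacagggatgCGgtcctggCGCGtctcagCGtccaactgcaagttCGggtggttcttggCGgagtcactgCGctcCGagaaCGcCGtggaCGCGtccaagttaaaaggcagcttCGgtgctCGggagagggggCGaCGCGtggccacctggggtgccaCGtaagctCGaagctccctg
Plxnc1 (upstream, chr10:94409123-94409322, minus strand, 1 CG): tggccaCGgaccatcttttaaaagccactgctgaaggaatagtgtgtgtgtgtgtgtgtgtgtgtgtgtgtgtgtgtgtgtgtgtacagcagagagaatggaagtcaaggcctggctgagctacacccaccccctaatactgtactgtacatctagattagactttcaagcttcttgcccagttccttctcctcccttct
Efna5 (intron, chr17:63228400-63228599, minus strand, 1 CG): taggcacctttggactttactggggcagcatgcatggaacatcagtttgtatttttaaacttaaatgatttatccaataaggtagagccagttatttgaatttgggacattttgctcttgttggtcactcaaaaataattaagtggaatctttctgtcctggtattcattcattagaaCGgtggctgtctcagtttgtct
Slit2 (upstream, chr5:48374194-48374393, plus strand, 24 CG): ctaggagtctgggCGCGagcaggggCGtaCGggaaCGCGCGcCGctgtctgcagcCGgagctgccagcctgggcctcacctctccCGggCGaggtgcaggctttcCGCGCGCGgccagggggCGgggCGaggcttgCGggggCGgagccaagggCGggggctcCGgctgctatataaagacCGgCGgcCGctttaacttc
Epha4 (upstream, chr1:77511664-77511863, minus strand, 12 CG): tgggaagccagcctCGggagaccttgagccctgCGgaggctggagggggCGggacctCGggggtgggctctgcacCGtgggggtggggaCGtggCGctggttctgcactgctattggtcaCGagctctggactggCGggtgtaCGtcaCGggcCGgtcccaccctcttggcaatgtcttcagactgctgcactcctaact
Robo1 (upstream, chr16:72663194-72663393, plus strand, 11 CG): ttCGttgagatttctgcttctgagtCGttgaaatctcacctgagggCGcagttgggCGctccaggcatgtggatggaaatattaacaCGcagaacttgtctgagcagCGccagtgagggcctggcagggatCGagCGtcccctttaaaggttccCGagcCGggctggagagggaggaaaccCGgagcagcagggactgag
The stretches of Plxna4, Robo3, Ntn1, Unc5b and Slit2 hold 9 to 24 CG dinucleotides. Those of Plxnc1 and Efna5 hold 1 each, and their middles lie about 2 kb from the nearest start (-2011 bp and 1993 bp, upstream negative). The unmarked stretches of Epha4 and Robo1 hold 12 and 11. A further unmarked stretch, just upstream of Sema3c and not printed, holds 7.

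H3K27me3 was found at the promoter of more than 50% of these genes in every one of its 4 lists. In wild type ES 41 of 71 genes had a peak (57.7%, 46.2 to 68.5), against 13.4% of all protein-coding genes. The counts were 39 in shPCGF5 ES (54.9%, 43.4 to 66.0, against 12.9%), 40 in wild type NPC (56.3%, 44.8 to 67.3, against 15.7%) and 40 in shPCGF5 NPC (56.3%, against 15.5%). In each list the interval lay above the share of all genes. The median number of covered base pairs among genes with a peak was 721 and 519 bp in wild type and shPCGF5 ES and 1438.5 and 1420 bp in wild type and shPCGF5 NPC, so the peaks covered more of a marked promoter in NPC than in ES. Over all genes with a peak the corresponding medians were 561, 521, 1311 and 942 bp.

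Of the 71 genes, 27 had a peak in all 4 H3K27me3 lists (7.21% of all genes did), 28 in 1 to 3 of them (15.9%) and 16 in none (76.9%). H2AK119ub1 was less frequent. It was found at 21 genes in wild type ES (29.6%, 20.2 to 41.0, against 6.69% of all genes), 14 in shPCGF5 ES (19.7%, 12.1 to 30.4, against 5.96%), 14 in wild type NPC (19.7%, against 4.98%) and 18 in shPCGF5 NPC (25.4%, 16.7 to 36.6, against 4.17%). In total 33 genes had an H2AK119ub1 peak in at least 1 list (2657 of all genes, 12%), and 0 of them lacked H3K27me3 in all 4 H3K27me3 lists.

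**Figure D1:**
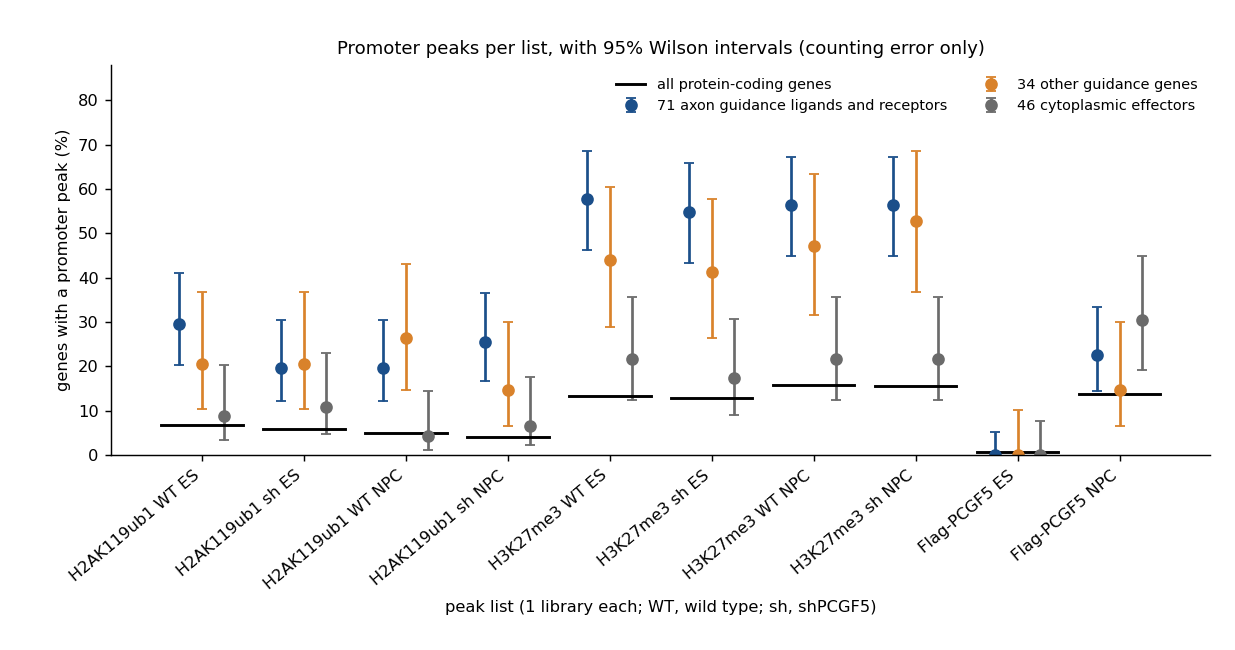
Share of genes with a promoter peak (vertical axis, percent) in each of the 10 lists (horizontal axis, 1 library each) for the 71 axon guidance ligands and receptors, 34 other guidance genes and 46 cytoplasmic effectors, with 95% Wilson intervals, and for all protein-coding genes (black lines). The 71 genes lie at 54.9 to 57.7% in the H3K27me3 lists and at 19.7 to 29.6% in the H2AK119ub1 lists, above the black line in each.

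Among the ligands, the semaphorins divided by class. The classes 5 to 7, which are mostly membrane bound, had H3K27me3 at 6 of 7 genes in wild type ES, shPCGF5 ES and wild type NPC and at 5 of 7 in shPCGF5 NPC. The secreted class 3 had it at 1, 1, 2 and 3 of 7 genes in the same order, and the membrane-bound class 4 at 2, 1, 2 and 2 of 6. Sema3f, a repellent for neuropilin-bearing axons, was the member of class 3 with peaks throughout, and its H3K27me3 peaks covered 676, 627, 2705 and 1246 bp of its promoter window. Here and in each run of 4 values below, the order is wild type ES, shPCGF5 ES, wild type NPC, shPCGF5 NPC. Sema3a, the best known secreted repellent, had H3K27me3 in 1 list only, with 203 bp in wild type NPC. Sema3c, Sema3e, Sema3g, Sema4b and Sema4d had no promoter peak in any of the 10 lists.

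Sema5b, a transmembrane semaphorin, had the most covered base pairs of all 71 genes summed over the 8 histone lists (19505 bp). H3K27me3 covered 3725, 2576, 3477 and 4892 bp of its window and H2AK119ub1 1530, 664, 894 and 1747 bp. In both marks the wild type library had more covered base pairs than the shPCGF5 library in ES and fewer in NPC. Ntn1, which encodes the axon attractant netrin-1, came second with 13947 bp. Its H3K27me3 peaks covered 620, 255, 3094 and 6796 bp and its H2AK119ub1 peaks 239, 0, 815 and 2128 bp, so that in shPCGF5 NPC both values were over 2 times those in wild type NPC. Ntng2, a membrane-anchored netrin relative, followed with 12476 bp, Unc5a with 11777 bp and Robo3 with 10625 bp. Base pairs were counted over the windows of all starts of a gene, and these 5 genes have 2 to 4 starts each. The ranking therefore also depends on the number of starts.

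All 6 netrin genes had H3K27me3 in wild type ES. Ntn5 had it there alone, with 241 bp. Ntn3 had it in 3 lists by peak centre, since in wild type NPC 799 bp of its window were covered by a peak centred outside the window. At least 1 of its H3K27me3 peaks lies also in the window of Tbc1d24 and cannot be assigned to 1 of these genes. Its H2AK119ub1 peak in wild type ES was not shared. Of the ephrins, Efna2 and Efna3 had H3K27me3 in all 4 lists and Efnb3 and Efna4 had no peak in any list. Efnb2, an ephrin of vessels and neurons, had H3K27me3 in both ES lists (978 and 210 bp) and in neither NPC list. Its peaks are shared with the window of 4921522P10Rik. Among the Slits, Slit2 had H3K27me3 in all 4 lists (251, 482, 272 and 1437 bp), Slit1 in both NPC lists alone (1241 and 1439 bp) and Slit3 in both wild type lists alone (760 bp in ES and 421 bp in NPC). Each of the 3 ligands of the Robos thus had its own pattern over the libraries.

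Among the receptors, both neuropilins had H3K27me3 in all 4 lists, with 368, 215, 873 and 1219 bp at Nrp1 and 499, 782, 1676 and 2832 bp at Nrp2. H2AK119ub1 was found at Nrp2 in all 4 lists and at Nrp1 in none. The plexins were divided. Plxna4 and Plxnd1 had both marks in every list, Plxna1 and Plxnc1 had H3K27me3 in 3 lists each, Plxna2 in 1 (519 bp in shPCGF5 ES), and Plxna3, Plxnb1, Plxnb2 and Plxnb3 in none. Plxna4, a receptor partner of neuropilin 1, had the highest fold enrichment of any H3K27me3 promoter peak of these genes, 13.08 in wild type NPC, in the peak whose sequence stands first above. Its highest folds in the other lists were 5.89 in wild type ES, 7.77 in shPCGF5 ES and 8.54 in shPCGF5 NPC. The rank of the wild type NPC peak within its own list was the 99.5th percentile by score.

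Of the 14 Eph receptors, 8 had H3K27me3 in each list, but not the same 8. Epha5, Epha6, Epha8, Epha10, Ephb1 and Ephb2 had it in all 4. Epha8 and Epha10 also had H2AK119ub1 in both ES lists (913 and 745 bp at Epha8, 139 and 156 bp at Epha10) and in neither NPC list. Epha10, an Eph receptor without kinase activity, had 4068 bp of H3K27me3 in wild type NPC, against 2269 bp in shPCGF5 NPC. Epha4, a receptor for ephrins of both classes, and Ephb3 and Ephb4 had no peak in any list. Robo3, which controls midline crossing of commissural axons, had H3K27me3 in all 4 lists (721, 916, 4364 and 3661 bp) and H2AK119ub1 only in the NPC lists (705 and 258 bp). Robo2 had H3K27me3 in the wild type lists alone (191 and 581 bp), and Robo1, whose upstream sequence is printed above, had no peak. Unc5a, Unc5c and Unc5d, repulsive netrin receptors, had H3K27me3 in all 4 lists. Dcc, the attractive netrin receptor, had 0, 475, 611 and 683 bp, and Unc5b 0, 201, 2813 and 0 bp.

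**Figure D2:**
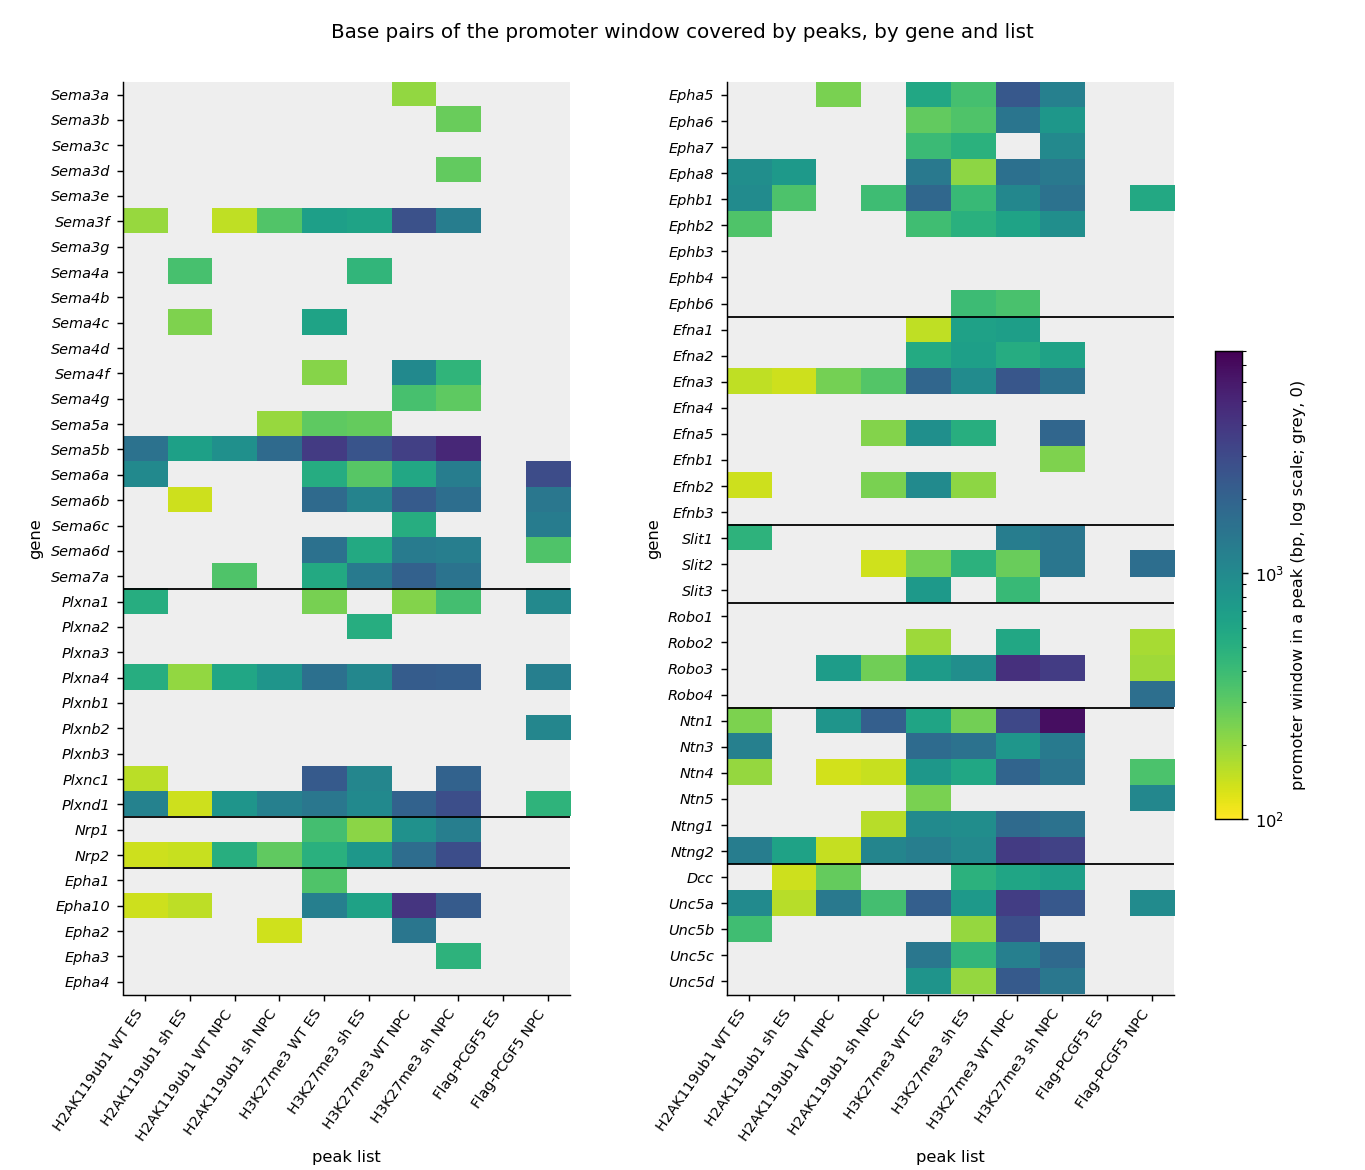
Base pairs of the promoter window covered by peaks (colour, log scale, grey where 0) for each of the 71 genes (rows, by family, lines between families) in each of the 10 lists (columns; WT, wild type; sh, shPCGF5). Sema5b, Plxna4, Plxnd1, Nrp2, Efna3, Ntng2 and Unc5a are filled in all 8 histone columns, while 14 genes are grey in all 10 columns.

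Peaks of all 8 histone lists were found at 7 genes (1.42% of all genes), namely Efna3, Nrp2, Ntng2, Plxna4, Plxnd1, Sema5b and Unc5a. Both marks stood together at 19 genes in wild type ES (5.34% of all genes had both), 13 in shPCGF5 ES (4.37%), 14 in wild type NPC (4.73%) and 15 in shPCGF5 NPC (3.86%). Of the genes with H2AK119ub1, 90.5%, 92.9%, 100% and 83.3% also had H3K27me3, against 79.8%, 73.3%, 94.9% and 92.6% over all genes with H2AK119ub1. The genes with H2AK119ub1 and no H3K27me3 in the same cells were Slit1 and Unc5b in wild type ES, Sema4c in shPCGF5 ES, and Sema5a, Epha2 and Efnb2 in shPCGF5 NPC. For H3K27me3 the reverse share was lower, since between 33.3% (shPCGF5 ES) and 46.3% (wild type ES) of the genes with H3K27me3 had H2AK119ub1. Over all genes these shares were 33.8% in shPCGF5 ES and 39.9% in wild type ES.

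Wild type and shPCGF5 cells were compared first in ES, to see whether these promoters carried fewer or more marks in cells depleted of PCGF5. H2AK119ub1 was found at 11 genes in wild type ES alone (3.43% of all genes), at 4 in shPCGF5 ES alone (2.69%) and at 10 in both, which are 47.6% of the wild type set and 71.4% of the shPCGF5 set (48.8% and 54.8% over all genes). The 8 with the most covered base pairs among those in wild type alone were Ntn3 (1190 bp), Sema6a (1001 bp), Plxna1 (518 bp), Slit1 (468 bp), Unc5b (386 bp), Ephb2 (336 bp), Ntn1 (239 bp) and Ntn4 (199 bp). The 4 in shPCGF5 alone were Sema4a (360 bp), Sema4c (234 bp), Dcc (140 bp) and Sema6b (140 bp). Plxna4, Plxnd1 and Ntng2 were among the genes with H2AK119ub1 in both lists.

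Summed over the 71 genes, H2AK119ub1 peaks covered 12581 bp in wild type ES and 4205 bp in shPCGF5 ES, a log2 ratio of -1.58, while the log2 ratio over all protein-coding genes was -0.14. Of 25 genes covered in either list, 19 had more covered base pairs in wild type (76.0%, against 56.0% of all such genes). The median of the highest fold per marked gene was 5.02 in wild type and 4.31 in shPCGF5 ES, against 4.93 and 4.16 over all genes with a peak. The median score percentile of these peaks within their list was 60.6 and 60.7, and the lists held 8672 and 7170 peaks. At Plxnd1 the covered length was 1152 bp in wild type and 140 bp in shPCGF5 ES, at Unc5a 990 and 161 bp, and at Ephb1 961 and 338 bp. Among the families, plexins (2350 and 345 bp) and netrins (2880 and 638 bp) had log2 ratios of -2.77 and -2.17, and neuropilins (139 and 144 bp) had one of 0.05.

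H3K27me3 in ES was found at 7 genes in wild type alone (3.9% of all genes) and at 5 in shPCGF5 alone (3.43%), with 34 in both (82.9% and 87.2% of each set, against 70.9% and 73.4% over all genes). With the higher-scoring 50% of each list, the share of the 71 genes in wild type alone was 23.9% and in shPCGF5 alone 5.63%. For H2AK119ub1 these were 12.7% and 4.23%. Shares over all genes were not computed at this setting, so whether these gaps are particular to the 71 genes was not tested. In the full lists the genes on each side were as follows. The 7 were Slit3 (760 bp), Sema4c (627 bp), Epha1 (332 bp), Plxna1 (246 bp), Ntn5 (241 bp), Sema4f (221 bp) and Robo2 (191 bp). The 5 were Plxna2 (519 bp), Dcc (475 bp), Sema4a (448 bp), Ephb6 (399 bp) and Unc5b (201 bp). Both sets mix ligands and receptors, and Dcc and Sema4a stood among the shPCGF5 genes in both marks. The summed covered length was 39074 bp in wild type and 26045 bp in shPCGF5 ES (log2 ratio -0.59, against -0.18 over all genes), with more in wild type at 32 of 46 genes. The median of the highest fold was nearly equal, 5.09 and 5.07, against 4.83 and 5.45 over all genes with a peak. Within their lists these peaks ranked lower in shPCGF5 ES, with a median score percentile of 71.5 in wild type and 47.1 in shPCGF5. At Epha8, H3K27me3 covered 1352 bp in wild type ES and 210 bp in shPCGF5 ES.

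In NPC the direction for H2AK119ub1 was the other way. Peaks were found at 3 genes in wild type alone (2.46% of all genes) and at 7 in shPCGF5 alone (1.65%), with 11 in both (78.6% of the wild type set and 61.1% of the shPCGF5 set, against 50.7% and 60.6% over all genes). The 3 were Sema7a (335 bp), Dcc (283 bp) and Epha5 (243 bp). The 7 were Ephb1 (387 bp), Efnb2 (242 bp), Efna5 (226 bp), Sema5a (198 bp), Ntng1 (160 bp), Epha2 (138 bp) and Slit2 (138 bp). Most of these peaks were short, and the count depends on the weaker part of the lists: with the higher-scoring 50% of each list, the wild type list had 2 more such genes than the shPCGF5 list.

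The summed covered length of H2AK119ub1 in NPC was 7235 bp in wild type and 10172 bp in shPCGF5, a log2 ratio of 0.49, while that of all protein-coding genes was -0.93. Of 21 genes covered in either list, 15 had more covered base pairs in shPCGF5 (71.4%, against 36.4% of all such genes). The median covered length per marked gene was nevertheless lower in shPCGF5, 307 bp against 424 bp in wild type. Among the 11 genes with a peak in both lists, the medians were 595 bp in wild type and 368 bp in shPCGF5, though 8 of them had more in shPCGF5. The median of the highest fold was 4.79 in wild type and 4.5 in shPCGF5, against 4.65 and 5.38 over all genes with a peak. The lists held 5754 and 3845 peaks. The median score percentile of these peaks within their list was 54.9 in wild type and 27.6 in shPCGF5. Ntn1 (815 and 2128 bp), Ntng2 (146 and 1097 bp), Sema5b (894 and 1747 bp) and Plxnd1 (810 and 1186 bp) were among those with more in shPCGF5. Unc5a (1357 and 368 bp) and Robo3 (705 and 258 bp) went the other way. Without Ntn1 the sums were 6420 and 8044 bp, a log2 ratio of 0.33, and the difference was 1624 bp in place of 2937 bp. Ntng2 (951 bp) and Sema5b (853 bp) had the next largest gains, and the direction of the sum rested on these genes and Ntn1. By family, the netrins had 1095 and 3529 bp (log2 ratio 1.69) and the netrin receptors 1640 and 368 bp (-2.16). The netrin sum rested mostly on Ntn1 and Ntng2, and the receptor sum on 2 of 5 genes, Unc5a and Dcc (283 and 0 bp).

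H3K27me3 in NPC was found at 8 genes in wild type alone (3.74% of all genes), at 8 in shPCGF5 alone (3.54%) and at 32 in both. Unc5b (2813 bp), Epha2 (1423 bp), Efna1 (686 bp), Robo2 (581 bp), Sema6c (521 bp), Slit3 (421 bp), Ephb6 (352 bp) and Sema3a (203 bp) had it in wild type alone. Plxnc1 (2008 bp), Efna5 (1887 bp), Ntn3 (1343 bp), Epha7 (1023 bp), Epha3 (468 bp), Sema3d (288 bp), Sema3b (270 bp) and Efnb1 (232 bp) had it in shPCGF5 alone. The longest coverage on each side was thus at a receptor, Unc5b for wild type and Plxnc1 for shPCGF5. The peaks of Plxnc1 and Efna5 with the highest fold in shPCGF5 NPC hold the CG-poor stretches printed above, about 2 kb from the start. The Unc5b stretch in wild type NPC holds 20 CG. These stretches do not stand for all the covered sequence, which was 2008 bp at Plxnc1 and 1887 bp at Efna5. The 300 bp around the 5′ end of the gene record hold 54 CG at Plxnc1, 38 at Efna5 and 36 at Unc5b.

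The summed length of H3K27me3 in NPC was 66933 bp in wild type and 65601 bp in shPCGF5 (log2 ratio -0.03), against a log2 ratio of -0.35 over all genes. More base pairs were covered in shPCGF5 at 22 and in wild type at 26 of 48 genes (45.8% and 54.2%, against 36.4% and 63.6% of all such genes). The median of the highest fold was 5.61 and 5.3, against 5.4 and 4.67 over all genes with a peak. The median score percentile of these peaks within their list was 68.2 and 79.9, and the lists held 11371 and 14759 peaks. Ntn1 alone covered 3094 bp in wild type and 6796 bp in shPCGF5, and without it the sums were 63839 and 58805 bp (log2 ratio -0.12). The plexins (4489 and 7308 bp) and neuropilins (2549 and 4051 bp) had more in shPCGF5, and the netrin receptors (10559 and 6288 bp) and Eph receptors (12970 and 9515 bp) had more in wild type.

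**Figure D3:**
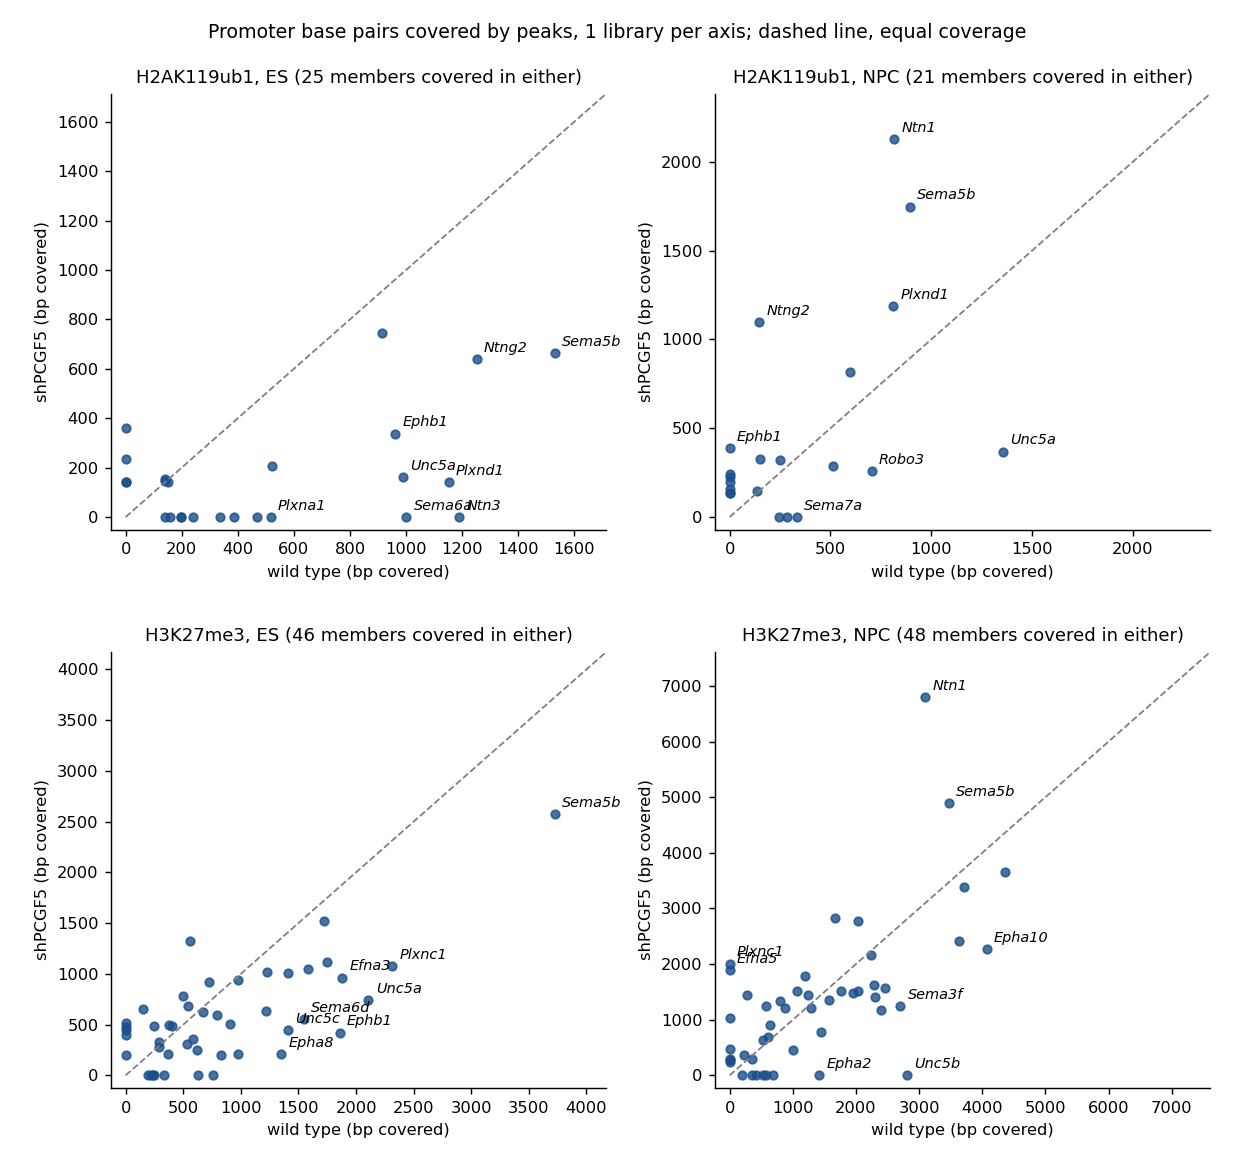
Base pairs of the promoter window covered by peaks in wild type (horizontal axis, bp) and shPCGF5 cells (vertical axis, bp), 1 point per gene covered in either list, for each mark and stage, with the dashed line where both are equal and the 8 genes with the widest difference named. In the H2AK119ub1 panels 19 of 25 genes lie below the line in ES and 15 of 21 lie above it in NPC.

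From ES to NPC, the number of genes with H3K27me3 in the full lists was nearly level in both genotypes, while the covered length was higher in NPC. In wild type, 9 genes had it in ES alone (3.81% of all genes) and 8 in NPC alone (6.08%), with 32 in both. Those in ES alone were led by Plxnc1 (2315 bp), Ntn3 (1726 bp), Efnb2 (978 bp), Efna5 (905 bp), Sema4c (627 bp), Epha7 (403 bp), Epha1 (332 bp) and Sema5a (294 bp). Those in NPC alone were Unc5b (2813 bp), Epha2 (1423 bp), Slit1 (1241 bp), Dcc (611 bp), Sema6c (521 bp), Sema4g (361 bp), Ephb6 (352 bp) and Sema3a (203 bp). Each side held both ligands and receptors. The summed length was 39074 bp in ES and 66933 bp in NPC (log2 ratio 0.78, against 1.41 over all genes).

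In shPCGF5 cells, 7 genes had H3K27me3 in ES alone (3.07% of all genes) and 8 in NPC alone (5.6%). The 7 were Efna1 (653 bp), Plxna2 (519 bp), Sema4a (448 bp), Ephb6 (399 bp), Sema5a (284 bp), Efnb2 (210 bp) and Unc5b (201 bp). The 8 were Slit1 (1439 bp), Epha3 (468 bp), Sema4f (458 bp), Plxna1 (371 bp), Sema4g (297 bp), Sema3d (288 bp), Sema3b (270 bp) and Efnb1 (232 bp). Slit1 and Sema4g were in NPC alone in both genotypes. Plxnc1, Efna5 and Epha7, which had no peak in wild type NPC, had one in shPCGF5 NPC as well as in shPCGF5 ES. With a window of 1000 bp, and with equal numbers of peaks, the genes in ES alone exceeded those in NPC alone, by 2 and by 3. With the higher-scoring 50% of each list the count was not level, since 25.4% of the 71 genes had H3K27me3 in shPCGF5 NPC alone and 4.23% in shPCGF5 ES alone. Shares over all genes were not computed at this setting, so whether this is particular to the 71 genes was not tested. The log2 ratio of summed length was 1.33 (26045 and 65601 bp), against 1.24 over all genes.

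H2AK119ub1 went in opposite directions in the 2 genotypes. In wild type, 11 genes had it in ES alone (4.22% of all genes), led by Ntn3, Sema6a, Ephb1 (961 bp), Epha8 (913 bp), Plxna1, Slit1, Unc5b and Ephb2, and 4 in NPC alone (2.51%), namely Robo3 (705 bp), Sema7a, Dcc and Epha5. In shPCGF5 cells, 6 genes had it in ES alone (3.52%), namely Epha8 (745 bp), Sema4a, Sema4c, Epha10, Dcc and Sema6b. In NPC alone there were 10 (1.74%), of which Ntn1 (2128 bp), Sema3f (326 bp), Robo3 (258 bp), Efnb2, Efna5, Sema5a, Ntng1 and Ntn4 (144 bp) covered the most. The summed length went from 12581 to 7235 bp in wild type (log2 ratio -0.8, against 0.25 over all genes) and from 4205 to 10172 bp in shPCGF5 cells (1.27, against -0.53). With the higher-scoring 50% of each list, the shPCGF5 genes with H2AK119ub1 in ES alone exceeded those in NPC alone by 2 genes.

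Flag-PCGF5 had no promoter peak at any of the 71 genes in ES (0%, 0 to 5.13, against 0.787% of all genes) and had one at 16 genes in NPC (22.5%, 14.4 to 33.5, against 13.7%). The ES list is short, with 653 peaks, and when the NPC list was cut to its 653 highest-scoring peaks, 1 of the 71 genes had one. With the higher-scoring 50% of each list, 7 genes had a Flag-PCGF5 peak in NPC. The 16 genes were all 4 class 6 semaphorins (Sema6a, Sema6b, Sema6c and Sema6d), the plexins Plxna1, Plxna4, Plxnb2 and Plxnd1, the receptors Ephb1, Robo2, Robo3, Robo4 and Unc5a, and the ligands Slit2, Ntn4 and Ntn5. Class A plexins are receptors for class 6 semaphorins, and Robo2 is one for Slits. No ephrin and no neuropilin was among them.

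The highest fold per gene ran from 1.78 at Robo2 to 3.81 at Slit2, with a median of 2.29, and the Slit2 peak (chr5:48374034-48375664) spans the start of the gene and the sequence printed above. Of the 16 genes, 13 had a mark in an NPC list, all but Plxnb2, Robo4 and Ntn5. By fold these were Slit2 (3.81), Sema6b (2.44), Unc5a (2.36), Sema6c (2.31), Plxnd1 (2.31), Plxna1 (2.3), Robo3 (2.3), Sema6d (2.28), Sema6a (2.1), Ephb1 (2.01), Ntn4 (1.98), Plxna4 (1.89) and Robo2 (1.78). H3K27me3 of wild type NPC was found at 13 of the 16 genes (81.2%) and at 27 of the 55 genes without Flag-PCGF5 (49.1%), while 25.3% of all genes with Flag-PCGF5 had it. In shPCGF5 NPC these were 11 of 16 (68.8%) and 29 of 55 (52.7%). H2AK119ub1 was found at 5 of the 16 genes in wild type NPC (31.2%) and at 7 in shPCGF5 NPC (43.8%), against 16.4% and 20.0% of the 55 genes without Flag-PCGF5 and 8.22% and 7.5% of all genes with Flag-PCGF5.

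A mark and Flag-PCGF5 in 1 promoter window overlapped at some genes and lay apart at others. Of 19 Flag-PCGF5 promoter peaks, 4 were overlapped by an H3K27me3 peak of wild type NPC, at Ntn4, Plxna4, Sema6a and Unc5a, and 7 by one of shPCGF5 NPC, at these genes and at Ephb1, Plxnd1 and Slit2. At Slit2 the nearest H3K27me3 peak of wild type NPC was 1670 bp away, and at Robo3 206 bp. H2AK119ub1 peaks overlapped 1 of the 19 in wild type NPC (Unc5a) and 3 in shPCGF5 NPC (Ephb1, Plxna4 and Unc5a). The H3K27me3 list was longer in shPCGF5 NPC (14759 peaks) than in wild type NPC (11371). The H2AK119ub1 list was shorter in shPCGF5 NPC (3845 peaks) than in wild type NPC (5754). Overlaps were not computed for Flag-PCGF5 promoter peaks of other genes. Whether these counts are particular to the guidance genes was not tested, nor was the part of list length. Flag-PCGF5 chromatin was sonicated after crosslinking and histone chromatin was digested with nuclease, and the part of this difference in the overlap was not tested.

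In every histone list the median peak centre of these genes lay downstream of the nearest start, at 390 to 1172.5 bp. Peak positions over all genes are not given here. Of 82 H3K27me3 promoter peaks in wild type ES, 34 had their centre within 500 bp of the nearest start, 39 farther downstream and 9 farther upstream. In shPCGF5 NPC, 29 such peaks were within 500 bp, 52 downstream and 38 upstream. The upstream share was 31.9% in shPCGF5 NPC, 22.7% in wild type NPC and 17.3% in shPCGF5 ES, and lower still in wild type ES. The median width of a peak was 314, 276, 524 and 408 bp in the 4 H3K27me3 lists and 199, 176.5, 283 and 249 bp in the 4 H2AK119ub1 lists. H2AK119ub1 lay farther into the gene, with a median distance of its peak centres from the nearest start (downstream positive) of 957 bp in wild type ES, against 445.5 bp for H3K27me3 in the same cells. Of the 19 Flag-PCGF5 peaks, 8 were within 500 bp of a start, and their median width was 586 bp.

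**Figure D4:**
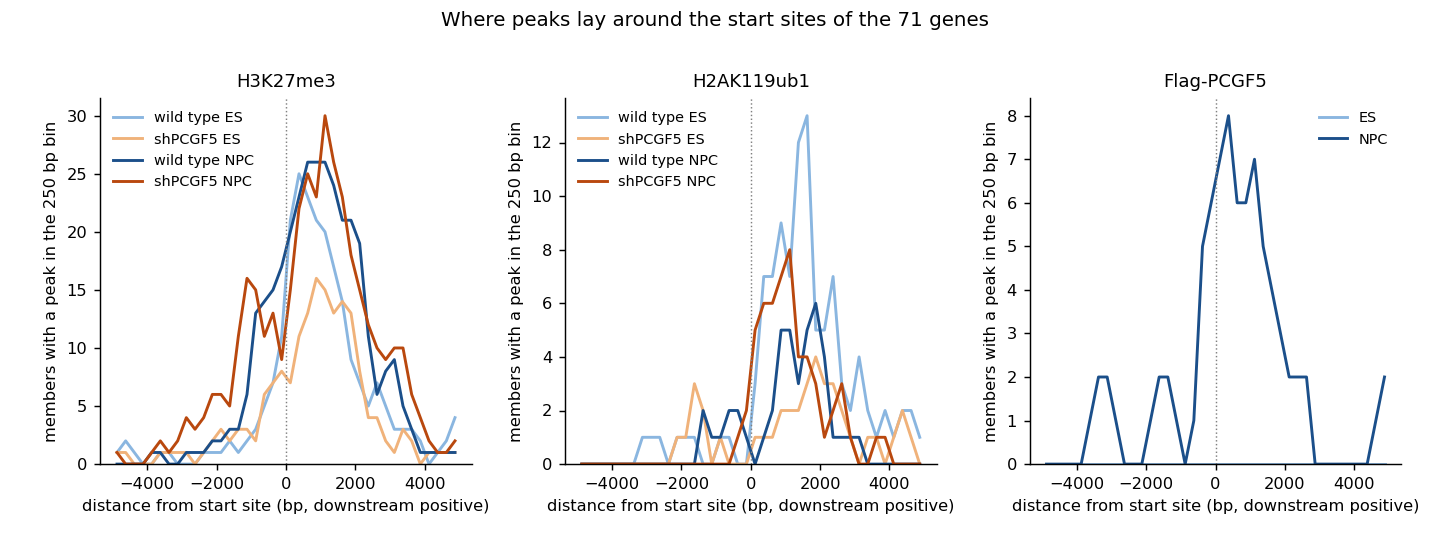
Number of the 71 genes with a peak in each 250 bp bin (vertical axis) by distance from the 5′ end of the gene record (horizontal axis, bp, downstream positive), for each mark and Flag-PCGF5, with 1 line per list. H3K27me3 reaches 25 genes at 250 to 500 bp in wild type ES and 30 genes at 1000 to 1250 bp in shPCGF5 NPC, and Flag-PCGF5 in NPC reaches 8 genes at 250 to 500 bp.

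The promoters of the 71 genes were rich in CG dinucleotides. In the 300 bp around the 5′ end of the gene record (250 bp before to 50 bp after) they held a median of 18 CG dinucleotides, against 11 over all protein-coding genes. The median was 23 in the 27 genes with H3K27me3 in all 4 lists, 19 in the 28 genes with 1 to 3 lists and 14.5 in the 16 genes with none. Over all genes the medians were 19 in those with all 4 lists and 9 in those with none. Epha8 (56) and Plxnc1 (54) held the most CG and Robo4 and Plxnb3 (3 each) the fewest. Single genes departed from the medians, since Plxnb1 held 36 with no H3K27me3 in any list and Sema3f and Ntng1 held 4 each with H3K27me3 in all lists. Peaks were counted at every start of a gene, so the 300 bp need not be the promoter that held the peak. Ntng1 has 4 annotated starts and Sema3f 1. The 16 genes with Flag-PCGF5 in NPC had a median of 24.5. The 71 genes were also longer than the rest (median 56.6 kb against 15.5 kb) and had more annotated starts (median 2 against 1), and each added start widens the sequence in which a peak can be counted.

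**Figure D5:**
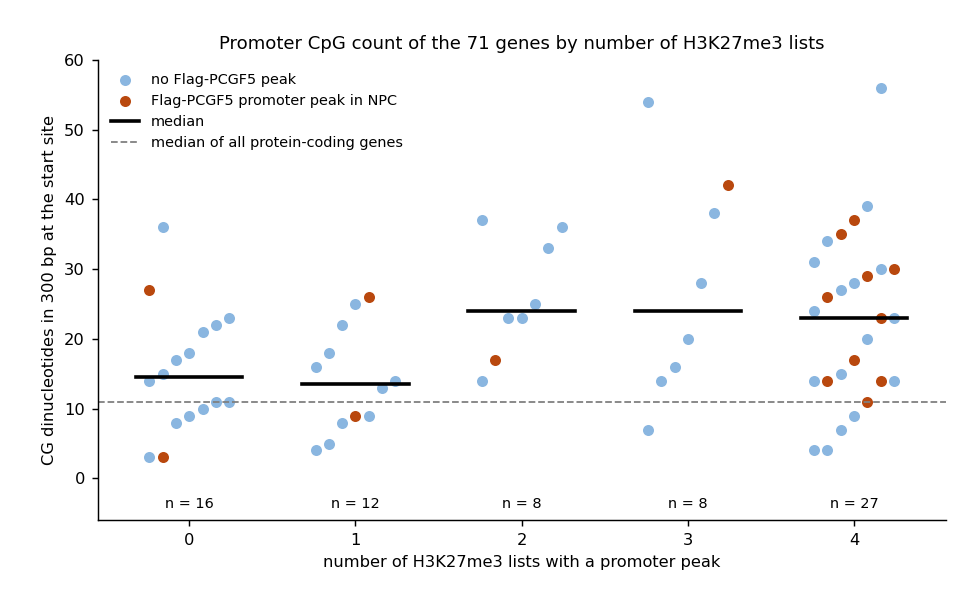
CG dinucleotides in the 300 bp around the 5′ end of the gene record (vertical axis) for the 71 genes (points), by the number of H3K27me3 lists with a promoter peak (horizontal axis), with medians as black bars, genes with a Flag-PCGF5 promoter peak in NPC in orange and the median of all protein-coding genes as a dashed line. The 16 genes without H3K27me3 have a median of 14.5 and the 27 genes in all 4 lists one of 23.

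The wider pathway was read from 2 further lists. Of 34 other extracellular or membrane guidance genes, 15, 14, 16 and 18 had H3K27me3 in the 4 lists (44.1%, 41.2%, 47.1% and 52.9%). These shares were lower than those of the 71 genes (57.7%, 54.9%, 56.3% and 56.3%). They were above those of all genes (13.4%, 12.9%, 15.7% and 15.5%). The genes with H3K27me3 included Shh and Wnt5a, morphogens that also steer axons, and Bdnf and Ntrk2, a neurotrophin and its receptor, each in all 4 lists. H2AK119ub1 was found at 7, 7, 9 and 5 of the 34 genes (20.6%, 20.6%, 26.5% and 14.7%, against 6.69%, 5.96%, 4.98% and 4.17% of all genes). Flag-PCGF5 in NPC was found at 5, namely Cntn2, Chl1, Cdon, Bdnf and Islr2 (14.7%, near the 13.7% of all genes). The 46 cytoplasmic effectors, which act inside the growth cone, had a different balance. H3K27me3 was found at 10, 8, 10 and 10 of them (21.7%, 17.4%, 21.7% and 21.7%), nearer to the shares of all genes. H2AK119ub1 was found at 4, 5, 2 and 3 (8.7%, 10.9%, 4.35% and 6.52%), also near those of all genes. Flag-PCGF5 in NPC was found at 14 (30.4%, 19.1 to 44.8, against 13.7% of all genes). The intervals of H3K27me3 in wild type ES, 46.2 to 68.5% for the 71 genes and 12.3 to 35.6% for the effectors, did not overlap, and those of Flag-PCGF5 in NPC did.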

How the data were processed

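ChIP-seq peak lists of 10 libraries were analysed, 1 library per group, grouped by their labels. The authors trimmed reads, aligned them to mm9 with Bowtie2, removed duplicates and called peaks per library with MACS2 2.1.0. The spike-in used for signal tracks does not enter the lists. Histone chromatin was digested with nuclease and Flag chromatin sonicated, and the part of this difference in peak widths was not tested. The deposited score is 10 times the -log10 p-value (histone lists) or -log10 q-value (Flag lists), rounded down. The deposited fold enrichment, -log10 p-value and -log10 q-value are the authors' peak caller values within a library. In the histone lists the smallest -log10 p-value was 4.0 to 4.05, and 0 to 8.81% of their peaks had a q-value above 0.05.

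Genes were taken from GENCODE M1 (NCBIM37), with every start of protein-coding transcripts. Peaks were assigned by their centre, at up to 2500 bp from a start, and covered base pairs are those of a gene's windows that lie in peaks. Unc5 genes were read as Unc5 and 1 letter. Of 35 other guidance genes 34 had an annotated name (Draxin had none), and of 46 effectors all did. Members and lists were chosen with earlier results of these data known. Genes were named by rule: all members by family, up to 8 per pair of lists by covered base pairs, the 5 with the most coverage, those in all 8 histone lists, Flag-PCGF5 genes with a mark, and a fixed list of well known members. Python 3.11.15, pandas 2.3.3 and scipy 1.17.1 were used, and assignments were tested on simulated data and checked with bedtools 2.31.1 (0 of 71 genes differed). Alternatives were a window of 1000 bp, any base of a peak, the higher-scoring 50% of peaks, a q-value of at most 0.05, 1 start per gene, equal peak numbers, Unc5 genes left out and Flag-PCGF5 peaks outside regions of high fold.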

Additional observations from a re-analysis of the deposited data

Results flagged for a closer look

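The difference between wild type and shPCGF5 cells in H2AK119ub1 lay in opposite directions in ES and NPC. The shPCGF5 library minus the wild type library was -7 genes with a promoter peak in ES and 4 genes in NPC. For covered base pairs over the 71 genes it was -8376 bp in ES and 2937 bp in NPC. With 1 library per group, this difference between ES and NPC was not tested. Without Ntn1 the difference in NPC was 1624 bp, and Ntng2 and Sema5b had the next largest gains (951 and 853 bp). The direction of the NPC sum rested on Ntn1, Ntng2 and Sema5b. Covered base pairs kept these directions under every alternative computed for them, while the count of genes in NPC went to -2 with the higher-scoring 50% of each list.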

How the results depend on the processing

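Shares were held against counting error and covered base pairs against a change of 1.5 times. Net counts of genes between 2 lists were checked for a reversed sign alone, so a smaller net count was not flagged. By these rules none of 47 results moved with a q-value of at most 0.05, with 1 start per gene or without the Unc5 genes. Nor did any of 39 results when any base of a peak counted (not applicable to covered base pairs), or of 3 results with Flag-PCGF5 peaks outside regions of high fold. Leaving out Ntn1, chosen after seeing the data, moved none of the 8 sums of covered base pairs by more than 1.5 times. The NPC difference (shPCGF5 minus wild type), however, went from 2937 to 1624 bp for H2AK119ub1 and from -1332 to -5034 bp for H3K27me3. The other 3 alternatives use fewer bases or fewer peaks by construction. All alternatives were computed for the 71 genes only, so their values have no share over all genes beside them. With a window of 1000 bp, H2AK119ub1 was found at 19.7% of the 71 genes in wild type ES, 8.45% in shPCGF5 ES and 9.86% in wild type NPC, and H3K27me3 at 40.8% in wild type and 43.7% in shPCGF5 NPC. H2AK119ub1 of shPCGF5 ES without that of wild type ES, or without that of shPCGF5 NPC, was found at 1.41% each. Both marks stood together at 14.1% in wild type ES, 7.04% in shPCGF5 ES and 5.63% in wild type NPC. Covered base pairs in wild type ES, shPCGF5 ES, wild type NPC and shPCGF5 NPC were 5322, 877, 2081 and 5402 for H2AK119ub1 and 24900, 14590, 36452 and 31705 for H3K27me3. The genes with H3K27me3 in shPCGF5 NPC alone minus those in shPCGF5 ES alone turned to -2.

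With the higher-scoring 50% of each list, the shares were 9.86% for H2AK119ub1 in shPCGF5 NPC, 28.2% and 40.8% for H3K27me3 in shPCGF5 ES and wild type NPC, and 9.86% for Flag-PCGF5 in NPC (8.45% with a mark as well). Genes with H2AK119ub1 in shPCGF5 NPC but not in wild type NPC, or not in shPCGF5 ES, were 4.23% each, and both net counts turned to -2. H3K27me3 was found in wild type and not shPCGF5 ES at 23.9%, in wild type and not shPCGF5 NPC at 5.63%, in shPCGF5 ES and not NPC at 4.23% and in shPCGF5 NPC and not ES at 25.4%. Both marks were at 15.5% in wild type ES, 5.63% in shPCGF5 ES and 9.86% in shPCGF5 NPC. Covered base pairs of H2AK119ub1 were 2287 in shPCGF5 ES, 4281 in wild type NPC and 4967 in shPCGF5 NPC, and those of H3K27me3 in shPCGF5 ES 12496.

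With equal numbers of peaks per target, H2AK119ub1 in wild type ES was at 19.7% (16.9% with H3K27me3) and Flag-PCGF5 in NPC at 1.41% (1.41% with a mark). H2AK119ub1 in wild type and not shPCGF5 NPC was at 1.41%, and H3K27me3 in shPCGF5 NPC and not ES at 5.63%, with a net count of -3. Covered base pairs of H2AK119ub1 were 7065 in wild type and 2287 in shPCGF5 ES. No paired analysis was possible because each group was 1 library, and no library could be left out for the same reason. The lists hold no read totals, and the part of depth in these differences was not tested.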

Other observations

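Peaks within the gene bodies, outside the promoter windows, were counted as well. The bodies of 23 of the 71 genes held 58 H2AK119ub1 peaks in wild type ES, 15 held 26 in shPCGF5 ES, 3 held 4 in wild type NPC and 6 held 6 in shPCGF5 NPC. These were 32.4%, 21.1%, 4.23% and 8.45% of the 71 genes, against 6.56%, 5.7%, 2.48% and 2.6% of all protein-coding genes, so the shares were lower in NPC over all genes too. The NPC lists were also shorter (5754 and 3845 peaks, against 8672 and 7170 in ES), and the 71 genes were longer than the rest (median 56.6 kb against 15.5 kb). Epha8, an Eph receptor gene of 27398 bp, held 12 of those in wild type ES and Plxnd1 9, and the same genes held the most H3K27me3 body peaks in wild type ES (11 and 8). Flag-PCGF5 in NPC had 59 body peaks in 24 genes (33.8%, against 12.2% of all genes), of which 14 had no Flag-PCGF5 promoter peak. Ephb2 held 12 of them, Slit1 6 and Ephb1 5, and neither Ephb2 nor Slit1 had one at its promoter. In ES, Flag-PCGF5 body peaks were found in Slit3 alone, which held 4, and that gene lies in 1 of 9 regions of 5 Mb with at least 5 ES peaks of a fold of 8 or more.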
